A study of Homo sapiens with 17 samples.

Results

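The cyclin-dependent kinase (CDK) inhibitors are described here in IMR90 ER:RAS cells, human lung fibroblasts given a RAS oncogene whose protein is joined to part of the oestrogen receptor. Members were picked by gene symbol: the 4 INK4 genes (CDKN2A, CDKN2B, CDKN2C and CDKN2D), the 3 CIP/KIP genes (CDKN1A, CDKN1B and CDKN1C) and the long non-coding RNA CDKN2B-AS1, which makes 8 of the 62754 gene rows in the tables. In these cells 4-hydroxytamoxifen (4OHT) switches the RAS fusion on and the cells enter senescence. Poly(A)-selected, strand-specific RNA sequencing was done on 17 libraries. Cells with a non-targeting siRNA and the solvent made up DMSO siNT (n = 5), cells with the same kind of siRNA and 4OHT made up 4OHT siNT (n = 6), and cells with an siRNA against SMARCA4 and 4OHT made up 4OHT siSMARCA4 (n = 6). The siRNA went in before 4OHT or DMSO, and RNA was taken 7 days after induction. All 3 groups come from the 1 retrovirally infected line, so the DMSO controls carry the transgene too, and no library combined DMSO with siSMARCA4. The labels do not say whether replicates are separate cultures, so p-values measure the spread between these libraries, which may be technical.

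INK4 proteins bind CDK4 and CDK6 and keep them from pairing with D-type cyclins. CIP/KIP proteins bind a wider set of cyclin-CDK complexes. Both block phosphorylation of the retinoblastoma protein, which holds back E2F transcription factors and with them entry into S phase. In fibroblasts with an active oncogene the products of CDKN2A and CDKN1A are known for their part in the lasting arrest of senescence. SMARCA4 (BRG1) supplies the ATPase activity with which SWI/SNF complexes move nucleosomes.

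Library totals ran from 39.1 to 68.98 M counts (M, 1e6), and levels are given in CPM, counts per 1e6 counts of a library after scaling by TMM. SMARCA4 itself was 198 ± 19.2 CPM (SD, n = 5) in DMSO siNT, 268 ± 13.2 CPM (n = 6) in 4OHT siNT and 88.1 ± 22.8 CPM (n = 6) in 4OHT siSMARCA4, 3.04-fold below 4OHT siNT (edgeR adjusted p 5.14e-07). Labels also carry a number, 2 or 4, which on siSMARCA4 libraries names the siRNA, and the letters V or VM. The meaning of the number on siNT libraries and of the letters is not given, so results within 1 number match libraries by the label alone. All 6 libraries of 4OHT siNT are VM against 3 of 6 and 3 of 5 in the other groups. Of 8 fibroblast markers, VIM stayed between means of 5720 and 5985 CPM, and the other 7 fell both with 4OHT and with siSMARCA4, COL1A1 from 10772 to 6294 and then 2293 CPM. Of 9 markers of other cell types, 3, 2 and 2 were at 0 counts in DMSO siNT, 4OHT siNT and 4OHT siSMARCA4 (KRT5 in all 3 groups), and their summed level ranged over 1.64 to 2.79, 3.88 to 5.95 and 1.93 to 4.66 CPM. Within that list VWF and PECAM1, which mark endothelial cells, rose with 4OHT from 1.11 to 3.76 and from 0.0145 to 0.936 CPM. With siSMARCA4 PECAM1 fell to 0.341 CPM (edgeR log2 fold change -1.43, SE 0.33, adjusted p 0.00460), the direction of CDKN1A, CDKN2A and CDKN2B in both comparisons, and VWF was 2.60 CPM (edgeR estimate -0.53, SE 0.23, adjusted p 0.107). EPCAM, which marks epithelial cells, fell in both, from 0.870 to 0.386 and then 0.213 CPM (edgeR adjusted p 0.000875 and 0.0318). The part of any other cell type in the results was not tested. In bulk RNA, fewer cells that express a gene and less of its RNA per cell cannot be told apart.

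The first comparison, 4OHT siNT against DMSO siNT, asks how the inhibitors stand in RAS-induced senescence. All 8 members passed the filter on low counts. CDKN1A, CDKN2A and CDKN2B rose, CDKN1B, CDKN1C and CDKN2C fell, and CDKN2D and CDKN2B-AS1 did not pass the test. Of the 8 members 3 were higher, where 27.0% of all 19473 genes tested were, and 3 were lower, where 27.4% of all genes were. With 8 members these counts lie near those shares, and nothing is read from the split. The libraries of the 2 groups did not overlap for 6 of the 8, against 39.6% of all genes. The median log2 fold change was -0.04 over the 8 members and 0.00 over all genes tested.

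CDKN2B (ENSG00000147883; GRCh38 chr9:22002903-22009305, minus strand) encodes p15INK4b and rose the most of the members. Its level was 22.4, 19.4, 17.1, 24.9 and 25.8 CPM in the 5 DMSO siNT libraries. In 4OHT siNT the lowest, median and highest library had 318, 351 and 388 CPM. Every 4OHT library thus lay above every DMSO library by a wide gap. The mean went from 21.9 ± 3.69 to 352 ± 24.8 CPM, a 16.1-fold rise (edgeR log2 fold change 4.01, SE 0.11, adjusted p 6.01e-15).

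CDKN1A (ENSG00000124762; chr6:36676460-36687337, plus strand) encodes p21, which binds cyclin E-CDK2 among other complexes. It had 814, 769, 899, 848 and 951 CPM in the DMSO libraries, so it was well expressed without induction. With 4OHT it ran from 1850 through a median of 2019 to 2137 CPM. The groups did not overlap, and the mean rose 2.35-fold, from 856 ± 71.3 to 2012 ± 93.6 CPM (edgeR log2 fold change 1.23, SE 0.08, adjusted p 1.65e-10).

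CDKN2A (ENSG00000147889; chr9:21967752-21995301, minus strand) encodes p16INK4a and, from another first exon and reading frame, p14ARF, which binds MDM2. The tables give 1 count for the gene, so its 2 products cannot be told apart. It had 39.3, 38.9, 38.5, 51.5 and 76.7 CPM in the DMSO libraries, the last of these (labelled 4; 3VM) standing above the other 4. In 4OHT siNT it ran from 101 through a median of 116 to 124 CPM. The groups stayed apart all the same, and the mean rose 2.35-fold from 49.0 ± 16.4 to 115 ± 7.91 CPM (edgeR log2 fold change 1.23, SE 0.16, adjusted p 3.36e-06). The log2 fold change was 1.46 without that DMSO library, 1.02 with VM libraries only, 1.49 with number 2 only and 0.84 with number 4 only, and it was called in all 29 alternative analyses.

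**Figure D1:**
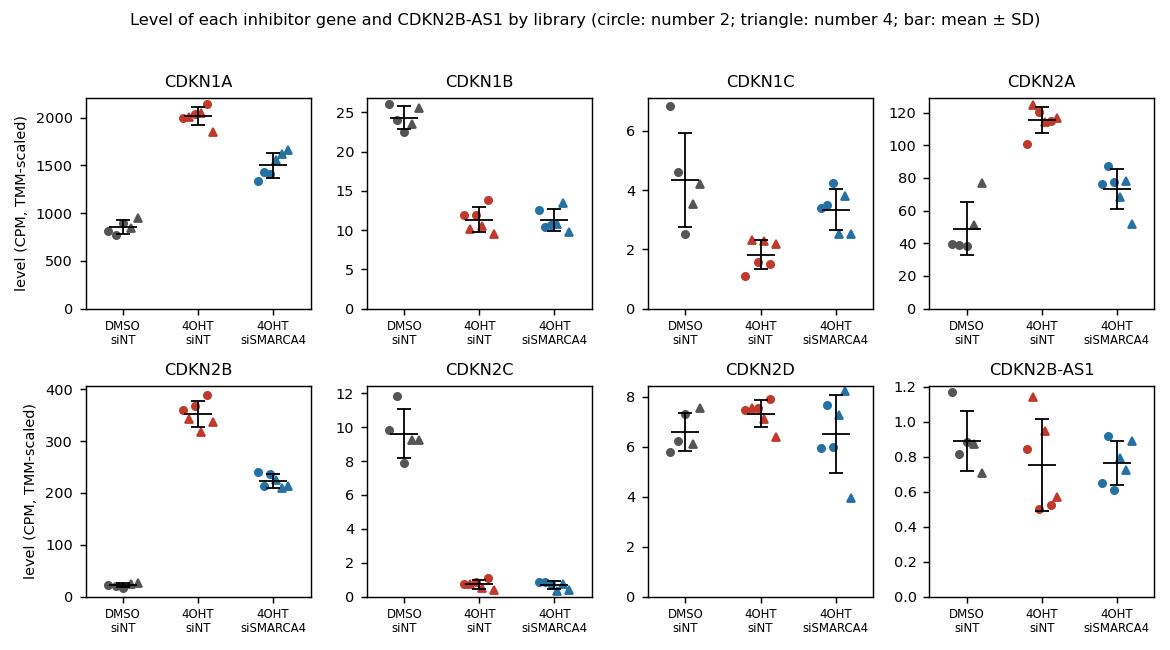
Level of each member in CPM (linear axis from 0, its own scale in each panel) in the 5 DMSO siNT, 6 4OHT siNT and 6 4OHT siSMARCA4 libraries; circles are number 2 and triangles number 4, and black bars give mean ± SD. CDKN1A, CDKN2A and CDKN2B are highest in 4OHT siNT and lower in 4OHT siSMARCA4, CDKN1B and CDKN2C are low in both 4OHT groups, and CDKN1C is lowest in 4OHT siNT.

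The 3 members called higher with 4OHT are shown here by the 120 bases before each RefSeq start (GRCh38.p14). Capitals mark the letters of a GC box (GGGCGG on either strand), the motif that Sp1-like factors bind. The intervals are chr6:36678594-36678713 (plus strand) for CDKN1A, chr9:21995325-21995444 (minus) for the p14ARF start of CDKN2A, chr9:21974858-21974977 (minus) for its p16INK4a start, and chr9:22009306-22009425 (minus) for CDKN2B.
CDKN1A: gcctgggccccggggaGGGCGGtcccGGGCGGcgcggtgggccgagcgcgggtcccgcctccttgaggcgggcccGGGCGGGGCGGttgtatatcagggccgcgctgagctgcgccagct
CDKN2A, p14ARF start: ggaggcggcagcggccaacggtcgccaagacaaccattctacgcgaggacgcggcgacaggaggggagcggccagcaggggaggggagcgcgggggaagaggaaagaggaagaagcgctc
CDKN2A, p16INK4a start: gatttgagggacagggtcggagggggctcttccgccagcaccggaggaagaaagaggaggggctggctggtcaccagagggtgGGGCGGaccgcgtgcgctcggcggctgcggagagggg
CDKN2B: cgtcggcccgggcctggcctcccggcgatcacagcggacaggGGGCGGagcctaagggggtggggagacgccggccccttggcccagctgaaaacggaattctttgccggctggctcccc

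Over the full 250 bases before each start, the GC box letters occurred 4 times for CDKN1A (2 of them overlapping), 2 times for CDKN2B, 1 time for the p16INK4a start and 0 times for the p14ARF start, and 42.6% of all 35116 RefSeq promoters hold at least 1 match in that window. Members that fell or were not called with 4OHT held the letters too: CDKN2C had 5, 1 and 0 matches at its 3 starts, CDKN2D 2, CDKN2B-AS1 2 and CDKN1B 1. TATAAA, the AP-1 letters TGANTCA and the E-box CACGTG, searched on both strands, had 0 matches in these 4 windows, against 10.7%, 6.57% and 6.34% of all promoters. The CDKN2C starts were the only ones among the members with an E-box match, at 2 of its 3 starts. RefSeq promoters were matched for 7 of the 8 members. The windows were 76.4% (CDKN1A), 66.8% (each CDKN2A start) and 66.4% (CDKN2B) G or C, against a median of 58.0% over all promoters. The GC box counts were not corrected for this. A match describes letters in a window and is no evidence of binding.

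Among the members that fell, CDKN2C (ENSG00000123080; chr1:50960745-50974634, plus strand), which encodes p18INK4c, moved the most. Its DMSO libraries had 9.83, 11.9, 7.89, 9.22 and 9.25 CPM. After 4OHT it ran from 0.379 through a median of 0.758 to 1.10 CPM, which is 20 to 47 counts per library. The groups did not overlap, and the mean went from 9.61 ± 1.45 to 0.723 ± 0.254 CPM, 13.4-fold lower (edgeR log2 fold change -3.74, SE 0.25, adjusted p 5.16e-10).

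CDKN1B (ENSG00000111276; chr12:12685498-12722369, plus strand) encodes p27, which binds cyclin E-CDK2 and is best known for control at the level of protein turnover. It had 26.0, 24.0, 22.4, 23.6 and 25.6 CPM in DMSO siNT and 9.45 to 13.8 CPM, with a median of 11.2, in 4OHT siNT. All 4OHT libraries lay below all DMSO libraries. The mean fell 2.15-fold, from 24.3 ± 1.47 to 11.3 ± 1.59 CPM (edgeR log2 fold change -1.11, SE 0.10, adjusted p 3.16e-08).

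CDKN1C (ENSG00000129757; chr11:2883213-2885775, minus strand) encodes p57 and is an imprinted gene. Its DMSO libraries were spread widely, at 6.83, 4.62, 2.53, 3.53 and 4.20 CPM, and the 2 highest are the V libraries. With 4OHT it ran from 1.11 through a median of 1.87 to 2.33 CPM, so the highest 4OHT library was only just under the lowest DMSO library. The mean went from 4.34 ± 1.60 to 1.82 ± 0.502 CPM, 2.38-fold lower (edgeR log2 fold change -1.25, SE 0.24, adjusted p 0.000178). With VM libraries only it was -0.94 (edgeR adjusted p 0.00411), and with number 2 or number 4 only it was -1.78 and -0.82, called each time.

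CDKN2D and CDKN2B-AS1 did not pass the test. CDKN2D (ENSG00000129355; chr19:10566460-10569059, minus strand), which encodes p19INK4d, had 5.81, 6.25, 7.30, 6.10 and 7.55 CPM in DMSO siNT and 6.38 to 7.93 CPM in 4OHT siNT, and the groups overlapped (edgeR log2 fold change 0.15, SE 0.14, adjusted p 0.405). CDKN2B-AS1 (ENSG00000240498; chr9:21994139-22128103, plus strand), known as ANRIL, lies antisense to CDKN2B and starts beside the p14ARF start. It was near the limit of these libraries, with 41 to 67 counts per library in DMSO siNT, 20 to 52 in 4OHT siNT and 31 to 54 in 4OHT siSMARCA4. Its CPM were 1.17, 0.816, 0.885, 0.872 and 0.705 in DMSO siNT and ranged from 0.498 to 1.14 in 4OHT siNT (edgeR log2 fold change -0.24, SE 0.22, adjusted p 0.391). While CDKN2B rose 16.1-fold on the other strand, no change of CDKN2B-AS1 was detectable at this depth in poly(A)-selected RNA. Its 28 annotated transcripts share 1 count and cannot be told apart.

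The second comparison, 4OHT siSMARCA4 against 4OHT siNT, asks what depletion of SMARCA4 does to the inhibitors in cells with active RAS. CDKN1A, CDKN2A and CDKN2B were lower and CDKN1C was higher. CDKN1B, CDKN2C, CDKN2D and CDKN2B-AS1 did not pass the test. That is 3 of 8 members lower, where 13.8% of all genes tested were, and 1 of 8 higher, where 10.4% were. The libraries did not overlap for 4 members, against 12.0% of all genes. The median log2 fold change was -0.15 over the members and -0.02 over all genes. Both comparisons share the 4OHT siNT libraries, so a library-level deviation there would push the 2 differences in opposite directions, and nothing is read from a gene having opposite signs in them.

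CDKN2B fell in every siSMARCA4 library to below every siNT library. The siSMARCA4 libraries ran from 210 through a median of 220 to 240 CPM, against 318 or more in 4OHT siNT. The mean was 223 ± 12.7 CPM, 1.58-fold below 4OHT siNT (edgeR log2 fold change -0.66, SE 0.09, adjusted p 6.36e-05). It was called in all 29 alternative analyses, with log2 fold changes from -0.69 to -0.58.

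CDKN2A fell too. Its siSMARCA4 libraries ran from 51.7 through a median of 76.8 to 87.2 CPM, all below the lowest 4OHT siNT library at 101 CPM. The mean was 73.1 ± 12.1 CPM (edgeR log2 fold change -0.66, SE 0.15, adjusted p 0.00463). It too was called in all 29 alternatives, from -0.81 to -0.44.

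CDKN1A ran from 1334 through a median of 1493 to 1662 CPM in 4OHT siSMARCA4, and its highest library lay below the lowest 4OHT siNT library at 1850 CPM. The mean was 1502 ± 131 CPM, 1.34-fold lower (edgeR log2 fold change -0.42, SE 0.07, adjusted p 0.000448). With the number 4 libraries alone, 3 in each 4OHT group, it was -0.25 (edgeR adjusted p 0.211).

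CDKN1C went the other way. It ran from 2.53 through a median of 3.46 to 4.25 CPM in 4OHT siSMARCA4, above the highest 4OHT siNT library at 2.33 CPM. The mean was 3.34 ± 0.689 CPM, 1.83-fold higher (edgeR log2 fold change 0.87, SE 0.23, adjusted p 0.0100), on 131 to 217 counts per library. With the number 4 libraries alone it was 0.43 (edgeR adjusted p 0.251).

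Since 3 siSMARCA4 libraries are V and no 4OHT siNT library is, the comparison was repeated within VM libraries (6 against 3). The same 4 members were called there, with log2 fold changes of -0.45 for CDKN1A, -0.56 for CDKN2A, -0.61 for CDKN2B and 1.08 for CDKN1C (edgeR adjusted p 0.00112, 0.0235, 0.00351 and 0.00415).

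The other 4 members did not pass the test. CDKN1B had 11.3 ± 1.43 CPM against 11.3 ± 1.59 (edgeR log2 fold change 0.00, SE 0.10, adjusted p 0.989), with the smallest error of the 4. CDKN2C had 0.663 ± 0.226 CPM against 0.723 ± 0.254 (edgeR estimate -0.12, SE 0.25, adjusted p 0.779). CDKN2D had 6.51 ± 1.55 CPM, with 1 library (labelled 4; 3V) at 3.96 and the highest at 8.23, against 7.33 ± 0.535 (edgeR estimate -0.17, SE 0.14, adjusted p 0.402). CDKN2B-AS1 had 0.764 ± 0.126 CPM against 0.753 ± 0.264 (edgeR estimate 0.02, SE 0.22, adjusted p 0.963).

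**Figure D2:**
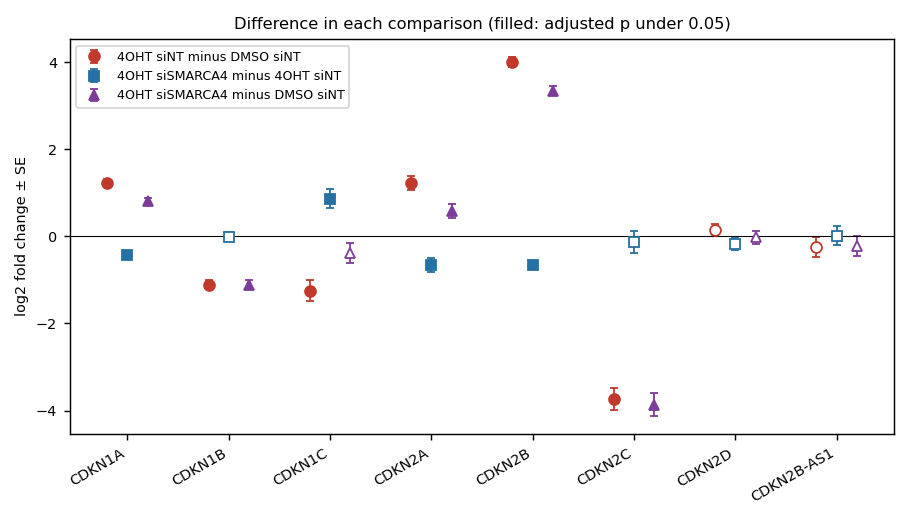
Log2 fold change with its SE (bars) for each member in the 3 comparisons, from 1 fit over all 17 libraries; filled symbols passed an adjusted p of 0.05. CDKN2B and CDKN2C stand far from 0 in both comparisons with DMSO siNT, and the knockdown comparison lies between -0.66 and 0.87 for every member.

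The siSMARCA4 siRNAs, number 2 and number 4, were then taken apart in 1 fit, each against all 4OHT siNT libraries. Number 2 called 22.7% of all genes and number 4 called 10.9%. CDKN1A was -0.53 (SE 0.08, edgeR adjusted p 0.000208) with number 2 and -0.32 (SE 0.08, adjusted p 0.0149) with number 4. CDKN2B was -0.62 (SE 0.11) and -0.70 (SE 0.11), both called. CDKN2A was -0.52 (SE 0.19, edgeR adjusted p 0.0508) with number 2 and -0.81 (SE 0.19, adjusted p 0.0114) with number 4, and CDKN1C was 1.03 (SE 0.27, adjusted p 0.0108) and 0.69 (SE 0.27, adjusted p 0.107). The siSMARCA4 libraries had 76.2, 87.2 and 77.5 CPM of CDKN2A with number 2. With number 4 they had 68.1, 78.1 and 51.7 CPM, the lowest in library 4-3V. With V or VM as a covariate, the number 4 calls of CDKN1A and CDKN2A were lost, at -0.27 (SE 0.09, edgeR adjusted p 0.0573) and -0.63 (SE 0.20, edgeR adjusted p 0.0510). The difference between the siRNAs was called for none of the 8 members by edgeR (0.0462% of all genes, 9 genes, were called), with the lowest adjusted p among members, 0.387, for CDKN1A. Its estimate, number 4 minus number 2, was 0.22 (SE 0.09) for CDKN1A, -0.28 (SE 0.21) for CDKN2A, -0.33 (SE 0.31) for CDKN1C and -0.71 (SE 0.33) for CDKN2C. With errors of this size the data do not show that the siRNAs act alike.

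In the third comparison, 4OHT siSMARCA4 against DMSO siNT, CDKN1A, CDKN2A and CDKN2B were still higher and CDKN1B and CDKN2C lower. That is 3 of 8 higher, where 26.5% of all genes were, and 2 of 8 lower, where 28.6% were; 4 members had no overlap between groups, against 36.3% of all genes. The medians were -0.12 over the members and -0.01 over all genes on the log2 scale. CDKN2B was 10.2-fold higher (edgeR log2 fold change 3.35, SE 0.10, adjusted p 1.63e-14) and CDKN1A 1.75-fold higher (edgeR estimate 0.81, SE 0.08, adjusted p 3.57e-08). CDKN2C was 14.5-fold lower (-3.86, SE 0.25) and CDKN1B 2.16-fold lower (-1.11, SE 0.10).

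CDKN2A was 1.49-fold higher than in DMSO siNT (edgeR estimate 0.58, SE 0.16, adjusted p 0.00501), and here the groups overlapped: the DMSO library at 76.7 CPM lay within the siSMARCA4 range of 51.7 to 87.2 CPM. With VM libraries only the value was 0.46 (edgeR adjusted p 0.0646), and with the number 4 libraries only, which leave 2 DMSO libraries, it was 0.03 (edgeR adjusted p 0.911). With the number 2 libraries only it was 1.05 (edgeR adjusted p 2.53e-06). CDKN1C did not pass the test against DMSO siNT (edgeR estimate -0.38, SE 0.23, adjusted p 0.178), although without the DMSO library with the lowest CDKN1C, labelled 2; 2VM, it was -0.54 (edgeR adjusted p 0.0475). CDKN2D (-0.02, SE 0.14) and CDKN2B-AS1 (-0.22, SE 0.22) were not called.

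Levels of different genes were compared per length, in CPM per kb of the union of a gene's exons. CDKN1A was the highest member in all 3 groups, at 286 ± 23.8, 671 ± 31.2 and 501 ± 43.6 CPM per kb. In DMSO siNT it was followed by CDKN2A (12.6 ± 4.23) and CDKN2B (5.48 ± 0.922). From CDKN2B down to CDKN1C, through CDKN2D, CDKN2C and CDKN1B, the libraries of each neighbouring pair overlapped in DMSO siNT, so their order there is not beyond the spread. In 4OHT siNT the order was CDKN1A, CDKN2B (88.1 ± 6.20), CDKN2A (29.7 ± 2.04), CDKN2D (4.87 ± 0.356), CDKN1B (1.22 ± 0.172), CDKN1C (0.736 ± 0.203), CDKN2C (0.240 ± 0.0840) and CDKN2B-AS1 (0.0369 ± 0.0129), with no overlap between neighbours. In 4OHT siSMARCA4 CDKN1C (1.35 ± 0.278) stood beside CDKN1B (1.22 ± 0.154), and these 2 overlapped.

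That order depends on the length used. The exons of CDKN2A span 3885 bases in all 14 transcripts together but 978 in the canonical transcript, while CDKN2B has 4000 and 3853. Per kb of canonical transcript CDKN2A was above CDKN2B in 4OHT siNT too, at 118 ± 8.09 against 91.5 ± 6.43 CPM per kb. On that scale CDKN1B (10.1 ± 0.610) and CDKN2C (9.66 ± 1.45) stood above CDKN2B (5.69 ± 0.957) in DMSO siNT. In 4OHT siNT 3 neighbouring pairs then overlapped: CDKN2D with CDKN1B, CDKN1C with CDKN2C, and CDKN2C with CDKN2B-AS1. In 4OHT siSMARCA4 the overlapping neighbours were CDKN2A with CDKN2B, CDKN1B with CDKN2D, and CDKN2C with CDKN2B-AS1. The fold change of a gene between groups does not depend on the length, but the size of a difference in its share of a family does.

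Within the INK4 family, CDKN2A took 48.2% ± 5.76 (SD, n = 5) of the counts per kb in DMSO siNT, 24.2% ± 1.92 (n = 6) in 4OHT siNT and 23.7% ± 2.92 (n = 6) in 4OHT siSMARCA4. The DMSO libraries ran from 43.6% to 57.6% and the 4OHT siNT libraries from 21.4% to 26.1%. The groups did not overlap, and the share was 24.0 percentage points lower with 4OHT (exact 2-sided permutation p 0.00216, adjusted 0.0026 over 6 tests; 0.00216 is the smallest this design can give). CDKN2B went from 21.5% ± 2.42 to 71.7% ± 1.88, CDKN2C from 12.8% ± 3.08 to 0.193% ± 0.0589 and CDKN2D from 17.5% ± 3.09 to 3.96% ± 0.213. The shares come from the same counts as the fold changes above, where CDKN2B rose far more than CDKN2A. The permutation p-value is therefore no further evidence beside them.

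Between the 2 4OHT groups the CDKN2A share differed by -0.525 percentage points (exact permutation p 0.716), with overlapping libraries. The CDKN2B share was 71.7% and 70.6% in these groups and was not tested. With canonical lengths the CDKN2A share was 70.5% ± 5.32, 54.8% ± 2.65 and 53.9% ± 4.03 in the 3 groups, again lower with 4OHT. The difference with 4OHT was then -15.7 points, and -31.0 points without any division by length (exact permutation test, adjusted p 0.0026 each).

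**Figure D3:**
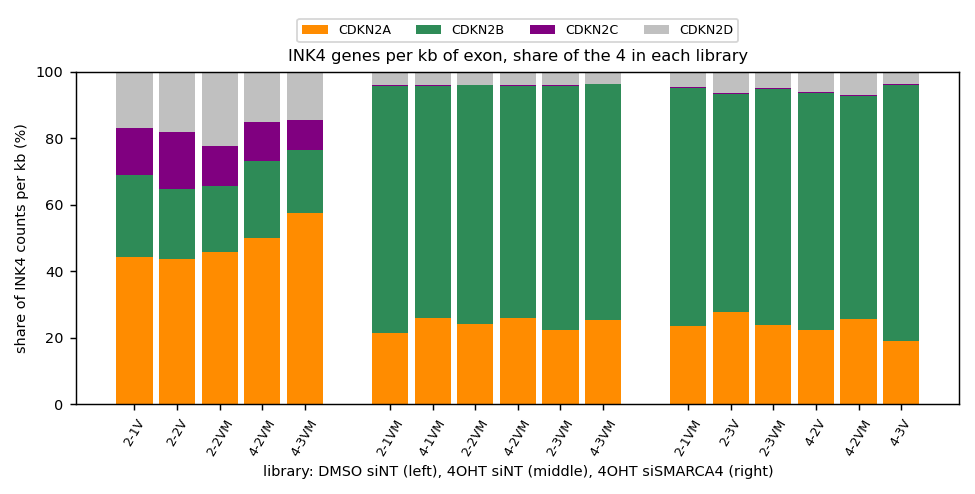
Share of each INK4 gene in the counts per kb of exon of the 4 INK4 genes (%, stacked to 100), 1 bar per library, with DMSO siNT on the left, 4OHT siNT in the middle and 4OHT siSMARCA4 on the right. CDKN2A takes 43.6% to 57.6% of a DMSO bar and 19.1% to 27.7% of a 4OHT bar, where CDKN2B takes 65.7% to 76.9%.

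In the CIP/KIP family CDKN1A was nearly all of the counts per kb: 98.5% ± 0.338, 99.7% ± 0.0174 and 99.5% ± 0.0979 in DMSO siNT, 4OHT siNT and 4OHT siSMARCA4. All 3 pairs of groups differed (exact permutation p 0.00216 each, adjusted 0.0026), by 1.23 points with 4OHT, by -0.224 points with siSMARCA4 and by 1.01 points between siSMARCA4 and DMSO siNT. The sizes depend on the length: with canonical lengths they were 2.43, -0.327 and 2.10 points, and without any division by length 2.61, -0.324 and 2.29 points (exact permutation test, adjusted p 0.0026 each). CDKN1B made up 0.910%, 0.181% and 0.244% of the family, and CDKN1C 0.612%, 0.110% and 0.271%. These shares too come from counts already tested gene by gene, so their permutation p-values are no further evidence.

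The partners and targets of the inhibitors were read from 3 lists. Of 11 cyclins and CDKs, 1 rose and 5 fell with 4OHT (median log2 fold change -0.09), and 3 rose and 4 fell with siSMARCA4 (median 0.08). The shares of all genes tested to read these and the next 2 lists against were 27.0% higher and 27.4% lower with 4OHT (median 0.00), and 10.4% higher and 13.8% lower with siSMARCA4 (median -0.02). CDK1, the mitotic kinase, fell from 22.2 ± 2.78 to 0.504 ± 0.189 CPM with 4OHT (edgeR log2 fold change -5.44, SE 0.33, adjusted p 8.94e-11), and it was 1.35 ± 0.671 CPM with siSMARCA4 (edgeR estimate 1.39 against 4OHT siNT, SE 0.31, adjusted p 0.00390), with overlapping libraries. The log2 fold changes of CCNA2, CCNE2 and CCNB1 with 4OHT were -4.07, -3.23 and -2.46, and none of these 3 was called with siSMARCA4.

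CDK4 and CDK6 are the kinases that INK4 proteins bind, and the D-type cyclins are the partners of those kinases. CDK6, a target of all 4 INK4 proteins, fell from 74.1 ± 17.1 to 39.4 ± 4.64 CPM with 4OHT (edgeR estimate -0.91, SE 0.15, adjusted p 5.99e-05). CDK4 was not called with 4OHT (123 ± 15.8 against 116 ± 8.10 CPM) and rose to 162 ± 21.7 CPM with siSMARCA4 (edgeR estimate 0.49, SE 0.10, adjusted p 0.00146). The D-type cyclins were not called with 4OHT, and all 3 fell with siSMARCA4, with log2 fold changes of -0.44 for CCND1, -1.53 for CCND2 and -0.32 for CCND3. CDK2, the partner of E-type cyclins, fell from 43.0 ± 3.54 to 25.3 ± 2.47 CPM with siSMARCA4 (edgeR estimate -0.76, SE 0.10, adjusted p 6.19e-05). CCNE1 rose in both, from 10.9 ± 0.908 through 14.3 ± 0.889 to 18.1 ± 0.904 CPM, with no overlap at either step.

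Of 12 RB and E2F genes, 4 rose and 6 fell with 4OHT (median -0.25), against 27.0% and 27.4% of all genes. With siSMARCA4 2 rose and 0 fell (median 0.06), against 10.4% and 13.8%. RB1 was not called in either comparison (38.1 ± 4.94, 35.8 ± 2.00 and 40.7 ± 3.52 CPM). E2F1, an activator of S-phase genes, fell from 15.1 ± 1.44 to 7.29 ± 0.931 CPM with 4OHT. E2F7, a repressor, rose from 22.0 ± 4.18 to 114 ± 12.9 CPM (edgeR estimate 2.38, SE 0.19, adjusted p 5.16e-09). It was not called with siSMARCA4 (-0.44, SE 0.17, edgeR adjusted p 0.0661). The 2 called higher with siSMARCA4 were E2F5 (0.53) and E2F6 (0.37).

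Of 18 genes known to regulate the inhibitors, 6 rose and 8 fell with 4OHT (median -0.09), and 2 rose and 3 fell with siSMARCA4 (median 0.00), beside the same 27.0% and 27.4%, and 10.4% and 13.8%, of all genes. In the second comparison DESeq2 called 7 of the 18 and edgeR 5. For CDKN2A, the Polycomb methyltransferase EZH2 fell from 13.2 ± 1.90 to 5.02 ± 0.316 CPM with 4OHT (edgeR estimate -1.40, SE 0.10, adjusted p 7.29e-10), the demethylase KDM6B rose from 19.2 ± 3.52 to 70.5 ± 9.07 CPM (1.87, SE 0.14), and the activator ETS2 rose from 64.2 ± 4.64 to 149 ± 3.62 CPM (1.21, SE 0.11). With siSMARCA4, KDM6B fell to 53.3 ± 10.4 CPM (edgeR estimate -0.40, SE 0.13, adjusted p 0.0305), ETS2 rose to 227 ± 45.9 CPM (edgeR estimate 0.61, SE 0.10, adjusted p 0.000458) and EZH2 was not called (0.07, SE 0.09).

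MDM2, the ubiquitin ligase that p14ARF binds, was called neither with 4OHT (0.07) nor with siSMARCA4 against 4OHT siNT (0.30). Against DMSO siNT, 4OHT siSMARCA4 was higher (edgeR estimate 0.37, SE 0.12, adjusted p 0.0120). MYC, which represses CDKN1A and CDKN2B, rose from 53.9 ± 7.03 to 83.4 ± 4.13 CPM with 4OHT and fell to 59.5 ± 8.48 CPM with siSMARCA4 (edgeR estimate -0.49, SE 0.09, adjusted p 0.00128). TGFB1, whose signalling induces CDKN2B, rose from 135 ± 19.9 to 299.5 ± 42.8 CPM and fell to 233 ± 35.2 CPM (edgeR estimate -0.36, SE 0.12, adjusted p 0.0293). SMAD3, also on that list, fell with 4OHT from 214 ± 47.0 to 175 ± 21.7 CPM (edgeR estimate -0.29, SE 0.12, adjusted p 0.0466). It was not called with siSMARCA4 (-0.26, SE 0.11, edgeR adjusted p 0.102). SKP2 and CKS1B, the ubiquitin ligase subunit and its cofactor that mark p27 for breakdown, fell 2.48-fold and 3.60-fold with 4OHT, and CKS1B rose with siSMARCA4 (edgeR estimate 0.66, SE 0.14, adjusted p 0.00192). Taken apart by siRNA, the listed genes called with siSMARCA4 were all called with number 2. With number 4, CDK1, CCND1, CCND3, KDM6B and TGFB1 were not called (edgeR adjusted p 0.101, 0.0647, 0.155, 0.214 and 0.214). The others were called with number 4 as well. Some listed genes without a call in the joint comparison were called with a single siRNA. With number 2 these were E2F7 (-0.89), RBL2 (-0.47) and FOXO3 (-0.44; edgeR adjusted p 0.000360, 0.0246 and 0.00690). With number 4 it was MDM2 (0.45, edgeR adjusted p 0.0246). None of these was called with the other siRNA, and the difference between siRNAs was called for none of them.

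**Figure D4:**
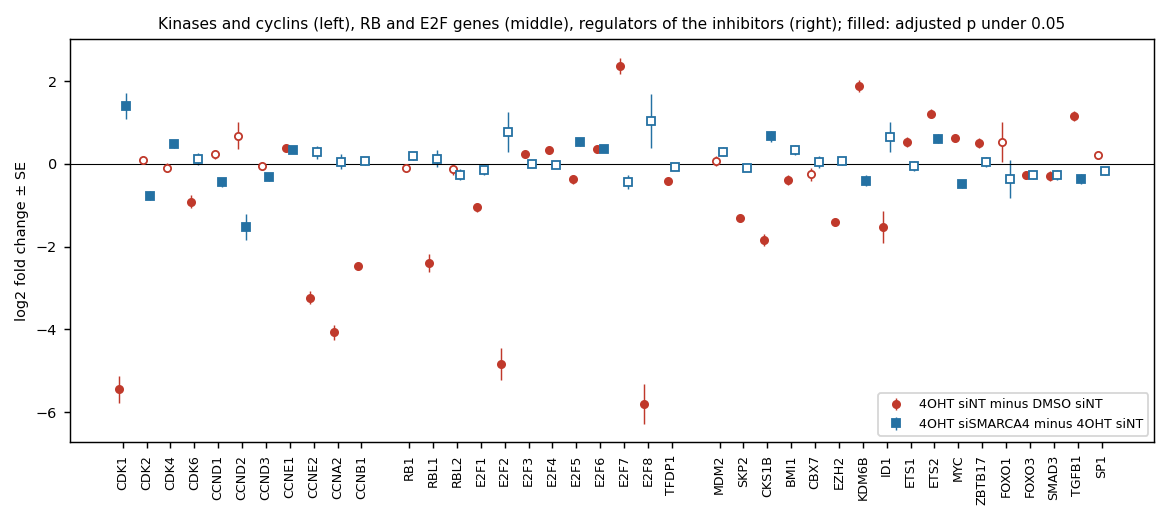
Log2 fold change with its SE (lines) for 40 listed genes, with cyclins and CDKs on the left, RB and E2F genes in the middle and regulators of the inhibitors on the right; red circles are 4OHT siNT against DMSO siNT, blue squares are 4OHT siSMARCA4 against 4OHT siNT, and filled symbols passed an adjusted p of 0.05. The 4OHT values reach -5.80 for E2F8, which had 0 to 2 counts per 4OHT siNT library, -5.44 for CDK1 and 2.38 for E2F7, whereas the called siSMARCA4 values lie between -1.53 (CCND2) and 1.39 (CDK1).

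The nearest tested genes on either side of each member were examined next. MTAP, 30100 bases from CDKN2A, rose with 4OHT, from 36.3 ± 1.54 to 75.6 ± 6.45 CPM (edgeR estimate 1.06, SE 0.07, adjusted p 8.05e-10), but was not called with siSMARCA4 (81.9 ± 6.90 CPM; 0.12, SE 0.07, edgeR adjusted p 0.243). On the other side, the gene ENSG00000236921 lies 194684 bases from CDKN2B and 75886 bases from CDKN2B-AS1. It rose from 0.0852 ± 0.0709 to 0.676 ± 0.163 CPM with 4OHT (2.94, SE 0.50) and was not called with siSMARCA4 (-1.08, SE 0.41, edgeR adjusted p 0.0617). SRSF3, a splicing factor gene 70859 bases from CDKN1A, fell with 4OHT (-0.86, SE 0.10) and rose with siSMARCA4 (0.45, SE 0.09), both called. Here too the 4OHT siNT libraries are shared, so nothing is read from the opposite signs. CPNE5, on the other side at 53437 bases, rose with 4OHT as CDKN1A did (edgeR estimate 2.04, SE 0.36, adjusted p 9.49e-05) and was not called with siSMARCA4 (-0.04, SE 0.30), at group means of 0.0951 to 0.394 CPM. SLC22A18AS, 1568 bases from CDKN1C in the same imprinted region, fell with 4OHT (edgeR estimate -0.93, SE 0.36, adjusted p 0.0330) and rose with siSMARCA4 (edgeR estimate 1.05, SE 0.34, adjusted p 0.0315). Its libraries overlapped in both, at group means of 0.172 to 0.357 CPM and 6 to 10 counts per 4OHT siNT library. Taken apart, neither siRNA called it (edgeR adjusted p 0.0795 for number 2 and 0.106 for number 4). Both comparisons share the 4OHT siNT libraries, so nothing is read from its opposite signs. FAF1, 477 bases from CDKN2C on the opposite strand, moved by -0.19 (SE 0.06, edgeR adjusted p 0.0119) where CDKN2C moved by -3.74. KRI1, 428 bases from CDKN2D, rose with 4OHT (0.89, SE 0.17) where CDKN2D was not called. AP1M2, 3611 bases from CDKN2D on its other side, fell from 0.466 ± 0.148 to 0.0372 ± 0.0420 CPM (edgeR estimate -3.69, SE 0.61, adjusted p 4.13e-05), on 0 to 4 counts per 4OHT siNT library. APOLD1, 3547 bases from CDKN1B, fell with 4OHT as CDKN1B did, by less (edgeR estimate -0.39, SE 0.07, adjusted p 9.32e-05). KCNQ1OT1, 183209 bases from CDKN1C, fell too (-0.74, SE 0.28, edgeR adjusted p 0.0320). Neither APOLD1 nor KCNQ1OT1 was called with siSMARCA4. CREBL2, 40389 bases from CDKN1B, and RNF11, 261638 bases from CDKN2C, were called in neither comparison.

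Genes with the most similar pattern were taken as the 2 highest Pearson correlations of log2 CPM over the 17 libraries among 9411 genes with a mean of 10 CPM or more. These points share the 3 groups and each library's scaling, so the values are descriptions. CDKN1A was closest to MAPRE3 (r = 0.986) and VPS37B (0.985). CDKN2A was closest to TUFM (0.975) and CCT7 (0.959), and CDKN2B to TRIB1 (0.989) and HTR7 (0.988). CDKN1B was closest to HMGB2 (0.979) and HMGN2 (0.978), and CDKN2C to ZNF362 (0.983) and ZWINT (0.981). After removing group means, TUFM had r = 0.912 with CDKN2A and TRIB1 had r = 0.0434 with CDKN2B. For CDKN1C the closest were ARL2 (0.931) and LGALS3 (0.930), for CDKN2D BBC3 (0.929) and SPAG7 (0.902), and for CDKN2B-AS1 TUBA1B-AS1 (0.878) and ENSG00000272540 (0.860). Among the members themselves CDKN1B and CDKN2C had r = 0.976 over the 17 libraries and 0.668 after removing group means, and CDKN2A and CDKN2B had 0.837 and 0.558.

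The tables also count repeat loci, and loci that lie inside a member's span give a further readout from the same spans. CDKN1A held 20 such loci with 1518 counts over all libraries, CDKN2A 37 with 450, CDKN2B 2 with 417, and CDKN2B-AS1 195 with 780. CDKN1B (17 counts) and CDKN2C (2 counts) had under 20 counts and were not tested, and CDKN1C and CDKN2D held 0 loci. Within CDKN1A 1 intronic MER3 copy, a DNA transposon fragment at chr6:36685320-36685501, had 1000 of the 1518 counts. Within CDKN2B 1 MIRb copy in an exon (chr9:22003927-22004158) had 359 of 417, and since it also lies in an intron of CDKN2B-AS1 and the locus names carry no strand, it counts for both.

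Repeat counts inside CDKN1A were 1.34 ± 0.406 CPM in DMSO siNT, 2.53 ± 0.517 CPM in 4OHT siNT and 1.22 ± 0.355 CPM in 4OHT siSMARCA4. The 4OHT siNT libraries ran from 2.06 to 3.20 CPM and lay above all others, whose highest was 1.66 CPM. Both differences with 4OHT siNT gave an exact permutation p of 0.00216 (adjusted 0.00519 over 12 tests). Without the MER3 copy the 2 differences were 0.555 and -0.539 CPM (exact permutation test, adjusted p 0.0877 and 0.0779). The relative sizes were not smaller. 4OHT siNT was then at 245% of DMSO siNT, and at 189% with all loci. 4OHT siSMARCA4 was at 42.6% of 4OHT siNT, and at 48.3% with all loci. Per 1000 gene counts of CDKN1A itself, the repeat counts were 1.60, 1.26 and 0.812, lower in 4OHT siSMARCA4 than in 4OHT siNT (exact permutation test, adjusted p 0.0346).

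Repeat counts inside CDKN2A were 0.296 ± 0.169, 0.728 ± 0.0878 and 0.468 ± 0.131 CPM in the same 3 groups (exact permutation test, adjusted p 0.00519 with 4OHT and 0.0148 with siSMARCA4), the same order as the gene. Per 1000 CDKN2A counts they were 6.82, 6.38 and 6.86. Inside CDKN2B they were 0.0575 ± 0.0497, 0.736 ± 0.615 and 0.551 ± 0.353 CPM, where the 4OHT siNT libraries spread from 0.0523 to 1.49 CPM. Of its comparisons, 4OHT siSMARCA4 against DMSO siNT was called (exact permutation test, adjusted p 0.00519) and 4OHT siNT against DMSO siNT was not (adjusted p 0.0682, and 0.0136 to 0.0714 on leaving out 1 library at a time, where leaving out any 1 of the 6 4OHT siNT libraries took it under 0.05).

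For CDKN2B-AS1 the repeat counts were 0.299 ± 0.0666, 1.18 ± 0.601 and 1.05 ± 0.496 CPM, higher in both 4OHT groups than in DMSO siNT (exact permutation test, adjusted p 0.0148 and 0.00519), while its gene counts did not change detectably. The first of these differences, 0.880 CPM, lost its call without DMSO libraries 2-1V, 4-2VM or 4-3VM. Its size was then 0.884, 0.873 and 0.856 CPM (exact permutation test, adjusted p 0.0571, 0.0571 and 0.0653). Loci outside the spans of CDKN2A and CDKN2B alone gave 0.241, 0.443 and 0.502 CPM, also higher in both 4OHT groups (exact permutation test, adjusted p 0.00519 and 0.0148). The locus names carry no strand, and which transcript these counts come from was not tested.

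**Figure D5:**
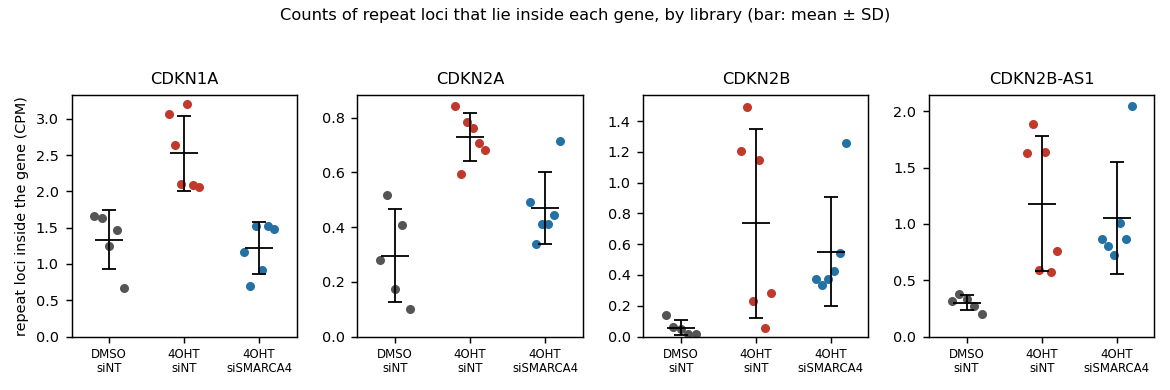
Counts of repeat loci inside CDKN1A, CDKN2A, CDKN2B and CDKN2B-AS1 in CPM (linear axis from 0), 1 point per library, with mean ± SD as bars. Inside CDKN1A the 6 4OHT siNT libraries (2.06 to 3.20 CPM) lie above every library of the other groups, and inside CDKN2B the 4OHT siNT libraries spread from 0.0523 to 1.49 CPM.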

How the data were processed

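RNA was measured in 17 libraries of IMR90 ER:RAS cells. The authors trimmed reads with cutadapt 4.7, aligned them to GRCh38 with HISAT2 2.2.1 (versions from the submitters' processing notes) and counted them with TElocal, which shares reads with several alignments among genes and repeat loci. The deposited tables hold these estimated counts per gene and repeat locus, so near-identical copies are uncertain. The deposited values were already whole numbers and were used unchanged. Counting used strand, and the gene IDs include ones later than the Ensembl release in the methods. Exon positions and symbols came from GENCODE 44.

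Genes and 1026 repeat subfamily sums were fitted together in edgeR 4.0.16 (R 4.3.3) by the quasi-likelihood test with 1 mean per group over all 17 libraries, TMM factors (0.949 to 1.08) and a filter at a minimum count of 10 and a minimum total of 15, which left 19473 genes. P-values were adjusted by Benjamini-Hochberg over those genes, with a threshold of 0.05. The SE of an edgeR estimate was derived as its absolute value divided by the square root of its quasi-likelihood F statistic. CPM used TMM-scaled library sizes. Shares and repeat counts inside genes were compared by exact 2-sided permutation tests over libraries. Scripts were tested on simulated data. Python 3.11.15 was used for the rest.

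The members, gene lists and tests were chosen with earlier results of these data known. Genes that could be named were the 8 members, any gene of the fixed lists, the nearest tested gene on each side of a member, the 2 genes with the highest Pearson correlation with each member among those with a mean of 10 CPM or more, and SMARCA4; which listed genes to name was chosen after their values were seen. The values of 1 listed regulator are not reported here. Alternatives were DESeq2 1.42.0, RLE factors, no filter, genes alone, V or VM as a covariate, VM only, 1 siRNA number only, a replicate block and leaving out each library. Whether the replicate labels pair the libraries was not settled, and the main fit used no pairing. Deviations from group means correlated over 0.1 in 5 of 9 pairs of libraries sharing digit and letters but not the number (median r 0.166, -0.160 to 0.418). The same held for 2 of 7 pairs sharing all 3 (median 0.0113, -0.204 to 0.289). It held for 8 of 16 pairs sharing the digit but not the letters (median 0.0769). Among pairs with different digits it held for 23 of 64 (median -0.00584, -0.536 to 0.513). So few pairs cannot decide the question.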

Additional observations from a re-analysis of the deposited data

Results flagged for a closer look

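Of 42 groups of libraries examined, 2 had a library apart from the others, where chance gives about 1 in 20. Repeat loci inside CDKN2B had 1.26 CPM in the 4OHT siSMARCA4 library labelled 4; 3V, against 0.338 to 0.543 CPM in the other 5. Repeat loci inside CDKN2B-AS1 had 2.05 CPM in the same library, against 0.724 to 1.01 CPM in the other 5. Both sums hold the same MIRb copy in an exon of CDKN2B. CDKN2B itself had 214 CPM in that library, within the range of its group, and CDKN2A and CDKN2D had their lowest 4OHT siSMARCA4 values there, 51.7 and 3.96 CPM. The cause was not tested.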

How the results depend on the processing

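Of 1164 alternative values, 1087 kept their direction and their side of the threshold or, for a count, stayed within 1.5 times of the count reported: in 4OHT siSMARCA4 against DMSO siNT, 5 members were called, 4 with VM only or number 4 only, and 6 without DMSO library 2-2VM. In the knockdown comparison, the near-zero CDKN1B estimate turned positive with DESeq2 (0.0049), RLE factors (0.0044), no filter (0.036), genes alone (0.0077), V or VM as a covariate (0.044), VM only (0.13), number 4 only (0.22), number as a covariate (0.0025) and the replicate block by digit and letters (0.089) or digit (0.0092). CDKN2B-AS1 turned to -0.16, -0.17, -0.10 and -0.10 with the covariate, VM only, number 4 only and the block by digit and letters, and CDKN2C to 0.15 with VM only. Number 4 only called 2 members, CDKN2A and CDKN2B, and lost CDKN1A (-0.25) and CDKN1C (0.43).

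Against DMSO siNT, 4OHT siSMARCA4 gave 0.46 (VM only) and 0.034 (number 4 only) for CDKN2A, 0.14 for CDKN1C (VM only), 0.022, 0.031 and 0.0046 for CDKN2D (number 2 only, block by digit and letters, block by digit) and 0.016 for CDKN2B-AS1 (number 4 only), and 4OHT siNT gave -0.0091 for CDKN2D and 0.12 for CDKN2B-AS1 (number 4 only). With the V or VM covariate, CDKN1A and CDKN2A with number 4 were -0.27 and -0.63, no longer called, CDKN1B with number 2 was 0.023, CDKN2B-AS1 with number 4 was -0.14 and the siRNA difference of CDKN2D was 0.022. Over all genes the knockdown comparison called 4703 by edgeR, 1198 with number 4 only, and 4444 and 4243 with the replicate block by digit and letters and by digit; the labels share these marks only, and members called did not change in number under either block.

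The repeat difference of CDKN2B-AS1 with knockdown turned to 0.0590 CPM outside CDKN2A and CDKN2B. Without MER3, the CDKN1A differences with 4OHT and with knockdown kept their direction but lost their call, at 0.555 and -0.539 CPM. Between siSMARCA4 and DMSO siNT the CDKN1A difference turned to 0.0169 CPM. Per 1000 gene counts the repeat differences were -0.341 (CDKN1A, 4OHT), -0.444 and 0.481 (CDKN2A, 4OHT and knockdown) and -0.603, 0.356 and -0.247 (CDKN2B).

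Leaving out 1 library, knockdown values ranged from -0.060 to 0.070 (CDKN1B), -0.25 to 0.035 (CDKN2C), -0.25 to -0.062 (CDKN2D) and -0.078 to 0.17 (CDKN2B-AS1). Against DMSO siNT, siSMARCA4 ranged from -0.098 to 0.089 (CDKN2D) and -0.54 to -0.18 (CDKN1C). The difference in CDKN2A share between the 4OHT groups ranged from -1.32 to 0.385 points. Repeat differences ranged from 0.123 to 0.228 (CDKN2A, siSMARCA4 against DMSO siNT), 0.527 to 0.815 (CDKN2B, 4OHT), 0.738 to 1.00 (CDKN2B-AS1, 4OHT) and -0.324 to 0.0168 CPM (CDKN2B-AS1, knockdown). The causes were not tested. CDKN2C and CDKN2B-AS1 had 20 to 54 counts per 4OHT library, which limits their precision.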
